A study of Homo sapiens with 33 samples.

Results

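The oligonucleotides described here are tiles ms2-4x:1 to ms2-4x:9 of the MS2 pool, each present in the design as 50 barcoded copies. They are 9 of the 105 tiles of that pool and of 3358 tiles in the 5 pools of the series, and 450 of 5250 barcodes in the pool. They were chosen by tile number, with their read counts and their ratios to Input already known. The values of FLAG and of HA against Input are therefore a description. Calls from the fit are given for them, but they are not read as tests of these tiles. Only the FLAG against HA contrast is read as a test. Tile ms2-4x:9 is the last tile inside the border of the rule and ms2-4x:10 the first outside it.

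All 9 libraries came from HEK293T, a human embryonic kidney cell line, in which FLAG-HA-MCP was overexpressed. The fractions were a FLAG immunoprecipitate, an HA immunoprecipitate and Input, with 3 libraries of each. The cells received the oligo pool by transfection, were harvested 48 hours later and were cross-linked with 0.1% formaldehyde for 10 minutes. RNA was released from the cross-links and read as cDNA amplicons in single-end runs, through priming sites common to the oligos. Every library came from cells with the tagged protein that were transfected with the pool, and what a single cell took up is not given. No library without MCP and no control precipitation was compared here.

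MCP is the coat protein of the RNA bacteriophage MS2, which binds a short RNA hairpin of the phage genome as a dimer. The pair of hairpin and coat protein is widely used as a tether: an RNA carrying the hairpin is recovered, localised or modified through a tagged MCP. The FLAG and HA peptides are small epitope tags, so that an antibody to either tag precipitates the same fusion protein. The labels do not say what "4x" stands for, which tiles carry a hairpin or how tile numbers relate to a source RNA. Tile and barcode sequences were not used here.

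Total reads ran from 4530657 to 5970277 in FLAG, from 5513258 to 6843839 in HA and from 4104695 to 4880714 in Input. Nothing in the labels says that replicates were separate cultures, so the spread between libraries may be technical. PCR reads without molecular identifiers are not independent molecules, so counting intervals and floors cover counting error only.

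Tile ms2-4x:1 was listed with 0 reads for all 50 of its barcodes in all 9 libraries. A count of 0 allows, per library, a share of at most 7.31e-05% of the reads (3 counts in the smallest library, Input replicate 1). It was the only tile of the pool without a read, and its 50 barcodes made up 50 of the 103 barcodes that were at 0 throughout. It has no ratio, and the 8 tiles that follow are those with reads. All 8 passed the filter on low counts, as did all 96 tiles outside the border.

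Tiles 2 to 9 were the 8 most abundant tiles of Input, and they took up a larger share of the reads in both immunoprecipitates. In all, they held 63.2%, 63.2% and 62.3% of the reads in FLAG replicates 1, 2 and 3, and 64.0%, 63.1% and 61.3% in HA. In Input they held 50.39%, 50.04% and 51.13%. No immunoprecipitate library overlapped Input, and the means were 62.9% ± 0.54 in FLAG, 62.8% ± 1.39 in HA and 50.5% ± 0.56 in Input (SD, n = 3 each). The exact (Clopper-Pearson) 95% counting interval of FLAG replicate 1 ran from 63.18% to 63.27%, far narrower than the spread between libraries. If all 104 tiles with reads had been equal, 8 of them would hold 7.69%. Counted against the other 96 tiles, tiles 2 to 9 gave 1.70 ± 0.039 reads per read elsewhere in FLAG, 1.69 ± 0.099 in HA and 1.02 ± 0.023 in Input.

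Within the 8 tiles the levels fell into steps. Tile ms2-4x:2 held 12.7%, 13.4% and 12.5% of the reads in FLAG, 12.9%, 13.7% and 12.4% in HA, and 10.7%, 10.8% and 11.1% in Input. Tile ms2-4x:3 held 12.4%, 13.0% and 12.8% in FLAG, 12.6%, 13.1% and 12.1% in HA, and 10.1%, 10.3% and 10.7% in Input. These were the most abundant pair of the pool. Within a library, ms2-4x:2 lay above ms2-4x:3 in 2 of 3 FLAG libraries, in all 3 HA libraries and in all 3 Input libraries, and FLAG replicate 3 went the other way.

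Tile ms2-4x:4 held 10.64%, 10.36% and 10.96% in FLAG, 10.99%, 10.29% and 10.43% in HA, and 8.25%, 8.12% and 8.47% in Input. Tile ms2-4x:5 came next, with 10.0%, 9.26% and 9.21% in FLAG, 10.2%, 9.72% and 9.13% in HA, and 7.56%, 7.66% and 7.61% in Input. For both, the FLAG and HA libraries lay above the Input libraries without overlap. Tiles 2 to 5 together made up 45.7% ± 0.25 of the reads in FLAG, 45.9% ± 1.57 in HA and 37.1% ± 0.63 in Input (SD, n = 3 each).

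Tile ms2-4x:8 broke the downward order by number. It held 6.36%, 6.27% and 5.95% in FLAG, 6.19%, 5.68% and 6.43% in HA, and 4.48%, 4.23% and 4.45% in Input. Tile ms2-4x:7 held 5.70%, 4.96% and 4.87% in FLAG, 5.55%, 4.76% and 4.94% in HA, and 4.10%, 4.01% and 3.96% in Input. Tile 8 lay above tile 7 in every library.

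The lowest of the 8 were tiles 6 and 9. Tile ms2-4x:6 held 2.88%, 3.05% and 3.29% in FLAG, 3.00%, 2.99% and 3.20% in HA, and 2.58%, 2.47% and 2.54% in Input. Tile ms2-4x:9 held 2.50%, 2.96% and 2.70% in FLAG, 2.60%, 2.84% and 2.68% in HA, and 2.63%, 2.43% and 2.38% in Input. Their Input levels overlapped (2.53% ± 0.056 for tile 6 and 2.48% ± 0.13 for tile 9, SD, n = 3). Tile 6 was separated from Input in every immunoprecipitate library, whereas the shares of tile 9 in FLAG replicate 1 and HA replicate 1 lay inside the Input range.

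The border of the rule, drawn with the read counts known, lay at a step in abundance. Tile ms2-4x:10 averaged 0.755% ± 0.051 in FLAG, 0.659% ± 0.082 in HA and 0.591% ± 0.018 in Input (SD, n = 3 each). Within a library, ms2-4x:9 exceeded ms2-4x:10 by 3.60-fold in FLAG, 4.13-fold in HA and 4.19-fold in Input (geometric means of 3 libraries). The most abundant of the other 96 tiles averaged 0.916% in FLAG, 0.937% in HA and 1.41% in Input. Below that border the median Input share was 0.543% for the 58 tiles numbered 10 to 67 and 0.429% for the 38 tiles numbered 68 to 105. Every other tile thus averaged less in each fraction than ms2-4x:9.

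Ratios to Input were computed after TMM scaling, which assumes that most tiles do not change, and are given as log2 fold changes with their standard error (n = 3 against 3). Tile ms2-4x:8 had the highest ratio to Input of all 104 tiles in both immunoprecipitates, at 0.77 ± 0.07 in FLAG and 0.77 ± 0.07 in HA, or 1.70-fold in each. By library, its log2 ratio to the Input mean was 0.79, 0.81 and 0.71 in FLAG and 0.82, 0.69 and 0.79 in HA, while the Input libraries lay between -0.09 and 0.05. The 95% interval of tile 8 ran from 0.63 to 0.91 in each immunoprecipitate. It overlapped that of lower-ranked tiles such as ms2-4x:10, from 0.33 to 0.92 in FLAG and from 0.15 to 0.75 in HA. Tile ms2-4x:9 had the lowest ratio of the 8, at 0.41 ± 0.09 in FLAG (1.32-fold) and 0.42 ± 0.09 in HA (1.34-fold). Its libraries were at 0.27, 0.55 and 0.39 in FLAG and 0.40, 0.51 and 0.35 in HA, against -0.06 to 0.09 in Input.

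The other 6 tiles lay between these. Tile ms2-4x:4 was at 0.64 ± 0.06 in FLAG and 0.65 ± 0.06 in HA, and ms2-4x:7 at 0.64 ± 0.08 and 0.63 ± 0.08. Tile ms2-4x:5 was at 0.59 ± 0.06 in FLAG and 0.64 ± 0.06 in HA, and ms2-4x:3 at 0.57 ± 0.06 and 0.58 ± 0.06. Tile ms2-4x:6 was at 0.55 ± 0.08 in FLAG and 0.57 ± 0.08 in HA, and the most abundant tile, ms2-4x:2, at 0.52 ± 0.06 and 0.55 ± 0.06. These 6 values spread over 0.12 in FLAG and 0.09 in HA, with standard errors of 0.06 to 0.08, and neighbours in this order lay closer together than 1 standard error. The most abundant tile had the lowest ratio of the 6 with both antibodies, which share the Input libraries, but this place was not stable. Without FLAG replicate 3, ms2-4x:6 was lower in FLAG, at 0.50 against 0.54 for ms2-4x:2. Without HA replicate 3 it was lower in HA, at 0.59 against 0.64. Across the 8 tiles the median was 0.58 in FLAG and 0.61 in HA, against -0.02 and 0.00 over all 104 tiles. The scaling itself places the pool near 0, so the pool median is not a measured background.

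Just outside the border, ms2-4x:10 had ratios of the same size, 0.62 ± 0.15 in FLAG and 0.45 ± 0.15 in HA. In FLAG it ranked 4 of 104, above 5 of the 8 tiles inside the border, and in HA it ranked 18. The step in abundance between tiles 9 and 10 therefore had no matching step in the ratio. Tiles 10 to 67 had a median of 0.16 in FLAG (range -1.41 to 0.62) and 0.12 in HA (range -1.18 to 0.63). Tiles 68 to 105 had a median of -0.99 in FLAG (range -1.44 to 0.58) and -1.02 in HA (range -1.45 to 0.60). FLAG and HA were set against the same Input libraries, so their values stand side by side and are not independent of each other.

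All 8 tiles passed an adjusted p of 0.05 as higher in FLAG and in HA by edgeR's quasi-likelihood test, where 21.2% of all 104 tiles passed as higher and 31.7% as lower in FLAG, and 23.1% and 30.8% in HA. After TMM scaling the libraries of these 8 tiles were also separated from Input in both, where that held for 22.1% and 33.7% of all tiles in the higher direction. By share of reads, as given above, those of ms2-4x:9 overlapped Input. Since the tiles were chosen with these ratios known, nothing is read from either count. The size of the ratios depended on the scaling. By these calls 55 of 104 tiles changed in FLAG and 56 in HA, so the assumption of TMM that most tiles do not change may not hold. The calls were themselves made after TMM scaling and cannot settle this. Their total was 51 in FLAG and 50 in HA by library size alone. It fell as low as 40 in FLAG and 42 in HA with single libraries left out. Scaled by library size alone, the ratios of the 8 tiles ran from 0.13 to 0.50 in FLAG and from 0.13 to 0.48 in HA. There ms2-4x:9 no longer passed (adjusted p = 0.183 and 0.214 in edgeR). Scaled on the other 96 tiles only, they ran from 0.57 to 0.94 in FLAG and from 0.55 to 0.90 in HA. The calls over the pool, 22 higher and 33 lower in FLAG and 24 and 32 in HA, became 8 and 43 in FLAG and 7 and 43 in HA by library size alone. Without FLAG replicate 2 the 22 higher calls in FLAG became 13. They became 35 and 29 in FLAG and 33 and 30 in HA when scaled on the other tiles. The median of all 104 tiles lay at -0.30 in FLAG and -0.29 in HA by library size, and at 0.15 in FLAG and 0.13 in HA when scaled on the other tiles.

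Ratios between tiles of the same library need no scaling. Tile 8 over tile 9, on the log2 scale, was 1.35, 1.08 and 1.14 in FLAG, 1.25, 1.00 and 1.26 in HA, and 0.77, 0.80 and 0.90 in Input. All 6 immunoprecipitate libraries lay above all 3 Input libraries, a mean of 2.28-fold in FLAG, 2.25-fold in HA and 1.77-fold in Input. Tile 8 thus gained on tile 9 by 0.37 in FLAG and 0.35 in HA. Tile 4 over tile 9 was 2.09, 1.81 and 2.02 in FLAG, 2.08, 1.86 and 1.96 in HA, and 1.65, 1.74 and 1.83 in Input. FLAG replicate 2 lay inside the Input range there, so that the FLAG and Input ranges overlapped while the HA and Input ranges did not.

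The most abundant tile did not separate from the least abundant in this way. Tile 2 over tile 9 was 2.35, 2.17 and 2.21 in FLAG, 2.31, 2.27 and 2.20 in HA, and 2.03, 2.15 and 2.22 in Input, and the ranges overlapped. Tile 8 over tile 2 was -1.004, -1.090 and -1.070 in FLAG, -1.06, -1.27 and -0.94 in HA, and -1.26, -1.36 and -1.32 in Input. The FLAG libraries were all above Input for this pair, and HA replicate 2 lay within the Input range.

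The FLAG and HA immunoprecipitates were compared directly, a contrast that played no part in the choice of tiles. Library numbers were not used as pairs in the tests of this paragraph. None of the 8 tiles passed (edgeR quasi-likelihood test, adjusted over all 104 tiles, adjusted p = 1.00 for each), and none of the 8 had an unadjusted p under 0.05. Over the pool 0 tiles passed in edgeR and 0 in DESeq2, and 1 had an unadjusted p under 0.05, so 0% of the pool was called in either direction. Tile ms2-4x:5 had the largest difference in size, -0.05 ± 0.06, with a 95% interval from -0.18 to 0.08. For ms2-4x:2 it was -0.04 ± 0.06 (-0.16 to 0.09), and for ms2-4x:8 it was 0.00 ± 0.07 (-0.14 to 0.14). The widest interval, that of ms2-4x:9, ran from -0.20 to 0.16, which corresponds to 0.873-fold to 1.12-fold. Differences smaller than these bounds could not be resolved with 3 libraries each. The share of reads in tiles 2 to 9 differed by 0.096 percentage points between FLAG and HA (two-sided exact permutation test, p = 0.80, n = 3 against 3, where the smallest possible p is 0.10).

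The barcodes show how evenly a tile was represented. All 400 barcodes of tiles 2 to 9 had reads in all 9 libraries. In the other 96 tiles, 12.6% to 27.5% of barcodes had no read in a FLAG library, 11.2% to 22.2% in an HA library and 5.60% to 9.63% in an Input library. The fewest reads for a barcode of tiles 2 to 9 in a library were 48 in FLAG, 181 in HA and 143 in Input, and the medians were 6992, 8064 and 4729.

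The 50 barcodes of a tile were far from equal, but more even than in most of the pool. Their coefficient of variation in Input ran from 26.4% in ms2-4x:8 to 41.2% in ms2-4x:3. Tile 8 had its barcodes within a 2.85-fold range in Input, and 4.08-fold in FLAG and 3.81-fold in HA. Tile 3 had the widest range of the 8 in FLAG and in Input, 42.4-fold in FLAG, 25.0-fold in HA and 40.3-fold in Input. Tile 7 had the widest in HA, at 30.1-fold in FLAG, 28.4-fold in HA and 21.3-fold in Input. Over the other 96 tiles the coefficient of variation ran from 38.8% to 200% (median 54.9%), and only 2 tiles were at or below 41.2%. Depth moved with this: the median Input barcode had 13995 reads over 3 libraries in tiles 2 to 9, against a median of 1316 in the other tiles, and the part of depth in the evenness was not tested.

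No single barcode carried a tile. The barcode of most Input reads held at most 4.65% of its tile in any FLAG library, 4.29% in any HA library and 4.25% in any Input library, where equal barcodes would hold 2% each. In ms2-4x:2 this was barcode 38, with 3841, 4371 and 4033 CPM (reads scaled to the total of the library) in FLAG, 3700, 4088 and 3535 in HA, and 3282, 3166 and 2801 in Input. In ms2-4x:3 it was barcode 25, with 4464, 5154 and 4839 CPM in FLAG, 4028, 4656 and 4476 in HA, and 4012, 3793 and 4528 in Input. Barcode 38 of tile 2 was higher in every immunoprecipitate library than in Input, and barcode 25 of tile 3 overlapped it in both. In tiles 4, 5, 6, 7, 8 and 9 these were barcodes 16, 2, 33, 28, 21 and 10. After TMM scaling the log2 ratios of all 8 such barcodes were above 0, from 0.41 to 0.96 in FLAG and from 0.32 to 0.73 in HA.

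Nearly every barcode of the 8 tiles had a log2 ratio above 0 after TMM scaling. This held for 388 of 400 barcodes in FLAG (97.0%) and 389 in HA (97.2%), where 38.5% and 42.7% of all barcodes in the pool with at least 30 reads were above 0. In 378 it held for both, in 21 for only 1 of the antibodies and in 1 for neither. In tiles 3, 4, 5 and 8 all 50 barcodes were above 0 in both. Of the 12 barcodes not above 0 in FLAG, 11 belonged to tiles 6 and 9, and so did 10 of the 11 in HA. Tiles 6 and 9 also had the fewest reads of the 8.

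A stricter count asked for every immunoprecipitate library of a barcode to exceed every Input library. It was met by 257 of the 400 barcodes in FLAG and 275 in HA, where 8.86% and 9.75% of the barcodes in the pool with at least 30 reads met it. By tile it ran from 10 of 50 in ms2-4x:9 to 42 of 50 in ms2-4x:3 for FLAG, and from 15 of 50 in ms2-4x:9 to 45 of 50 in ms2-4x:2 for HA. The opposite separation, with every immunoprecipitate library below Input, was met by 0 of the 400 barcodes with either antibody, where 11.5% in FLAG and 11.2% in HA of the same barcodes of the pool met it. These counts use the ratio that was known when the tiles were chosen, so they describe it at the level of single oligos and add no test.

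The spread of the ratio over barcodes differed between tiles. The standard deviation over the 50 barcodes of a tile ran from 0.18 in ms2-4x:5 to 0.47 in ms2-4x:6 for FLAG, and from 0.16 in ms2-4x:2 to 0.39 in ms2-4x:6 for HA. In the other 96 tiles the spread over barcodes had a median of 1.84 in FLAG and 1.73 in HA, and none of them was as low as the widest of the 8. Those tiles had far fewer reads per barcode (median 1316 against 13995 over the Input libraries) and barcodes without a read in single libraries. The part of depth in this spread was not tested. Splitting the barcodes of each tile by odd and even number moved its log2 ratio by at most 0.13 in FLAG and 0.14 in HA. Both sets come from the same 9 libraries, so the split describes the barcodes and adds no replicate.

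The ratio of a single barcode did not repeat between replicates. When each barcode's ratio was centred on its tile, the ratios of FLAG to Input in 1 replicate and of HA to Input in another, which share no library, had Pearson correlations from -0.07 to 0.12 over the 400 barcodes (6 pairings, median 0.01). Between replicates of the same antibody they ran from -0.08 to 0.03 for FLAG and from -0.02 to 0.11 for HA. The points of such a correlation share a library's depth and scaling, and barcodes of a tile share their target, so no p is given. A barcode's log2 level had a median standard deviation between libraries of 0.24 in FLAG, 0.23 in HA and 0.21 in Input, whereas counting error alone would give 0.017, 0.016 and 0.021. For whole tiles the median standard deviation between libraries was 0.06 in FLAG, 0.09 in HA and 0.06 in Input.

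The extremes among the 400 barcodes show this spread. The highest mean ratio was that of barcode 49 of ms2-4x:6, with 818, 618 and 601 CPM in FLAG, 473, 610 and 363 in HA, and 274, 296 and 266 in Input. Barcode 40 of ms2-4x:8 followed, with 1457, 1459 and 1235 CPM in FLAG, 1303, 1553 and 1262 in HA, and 816, 655 and 714 in Input. In both, no immunoprecipitate library overlapped Input. Barcode 41 of ms2-4x:8 came next, with mean log2 ratios of 1.17 in FLAG and 1.20 in HA.

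At the low end, 1 library decided the lowest value. Barcode 43 of ms2-4x:6 had 421, 8.04 and 209 CPM in FLAG, 199, 371 and 324 in HA, and 197, 394 and 386 in Input. Its log2 ratio was -1.51 in FLAG and 0.19 in HA, and the 8.04 CPM of FLAG replicate 2 came from the 48 reads named above. Barcode 11 of ms2-4x:9 was the only barcode not above 0 with either antibody, at -0.31 in FLAG and -0.32 in HA. It had 467, 298 and 278 CPM in FLAG, 252, 307 and 466 in HA, and 458, 590 and 478 in Input, so that the FLAG and HA ranges both overlapped Input. Barcode 1 of ms2-4x:9 had 441, 1108 and 438 CPM in FLAG, 338, 330 and 482 in HA, and 761, 552 and 645 in Input. Only its HA libraries were all below Input before scaling, and its log2 ratio was 0.16 in FLAG and -0.48 in HA.

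Between FLAG and HA, no barcode of the 8 tiles passed (edgeR quasi-likelihood test, adjusted over all 5030 barcodes tested), and 12 of 400, or 3.00%, had an unadjusted p under 0.05. Over the pool 0 barcodes passed in edgeR (0%) and 206 (4.10%) had an unadjusted p under 0.05, with a smallest adjusted p of 0.866. DESeq2 called 141 barcodes in the pool, none of them among the 400. By DESeq2, 28 of the 400 had an unadjusted p under 0.05. The difference between FLAG and HA was above 0 in 181 of the 400 barcodes (45.2%). The median 95% interval of a single barcode reached 0.44 to either side on the log2 scale, so smaller differences between the antibodies could not be resolved for single oligos.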

How the data were processed

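The deposited table of the MS2 pool holds raw read counts per tile and barcode in 9 libraries, per the file headers and its whole-number values. How reads were assigned is not given in the sources used here. Each of the 9 columns was assigned to its sample from its name (0 unmatched). Tiles, named barcodes and tests were chosen with earlier results of these data known. Counts were summed over the 50 barcodes of a tile, and the 9 libraries were fitted together with edgeR 4.0.16 in R 4.3.3 (filterByExpr, TMM, robust quasi-likelihood F test, Benjamini-Hochberg adjustment, threshold 0.05). A standard error is the size of the log2 fold change over the root of F. The scripts were tested on simulated data with as many higher as lower changes, set in FLAG only. A joint shift of the most abundant tiles in the same direction was not set, so the scaling was not tested for that case. Log2 CPM used a prior count of 2, and barcode ratios at least 30 reads over both groups.

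Within groups, library pairs differed by a chi-square of 166 or more per degree of freedom over tiles, so none was a copy. Deviations from group means over 104 tiles correlated at 0.65, 0.14 and 0.15 between FLAG and HA of the same number. Each was over 0.1, the limit used, so the numbers were read as pairing FLAG and HA, which the labels do not state. The main tests did not use this pairing, which entered only through the replicate block. The hint is weak: libraries of different numbers reached 0.59, the own number was best in 4 of 6 cases, and over the 400 barcodes the same-number values were 0.011, -0.018 and 0.10. They correlated at -0.13, -0.05 and -0.04 between FLAG and Input and at -0.18, -0.19 and 0.09 between HA and Input, which were not read as paired. Named barcodes were each tile's barcode of most Input reads and the 3 highest and 3 lowest by mean ratio. The alternatives were RLE factors, library size, scaling on tiles other than 1 to 9, no filter, a mean count of 50, DESeq2 1.42.0, a replicate block, libraries or top barcodes left out, a minimum of 100 reads or none, and prior counts of 0.5 and 10. The other 4 pools were not analysed here.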

Additional observations from a re-analysis of the deposited data

How the results depend on the processing

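The log2 ratios of tiles 2 to 9 to Input were above 0 in all 136 values recomputed for FLAG and all 136 for HA. Tile ms2-4x:8 was the highest and ms2-4x:9 the lowest of the 8 under all 17 settings, with both antibodies. Several of these settings could hardly change the order. The 2 changes of filter gave the same values as reported, and a change of scaling shifted all 8 tiles by nearly the same amount. The total of tiles called in the pool, higher and lower together, stayed within 1.5 times of the value reported, but the number called higher did not. The total ran from 40 to 73 in FLAG against Input and from 42 to 62 in HA against Input with single libraries left out. All 8 tiles were among them each time, which adds no support, since they were chosen with their ratios known. The tiles of the pool called higher ran from 13 (without FLAG replicate 2) to 32 in FLAG and from 16 to 27 in HA. By library size alone they were 8 in FLAG and 7 in HA. With the replicate block, 56 tiles passed in FLAG against Input, 54 in HA against Input and 0 in FLAG against HA, and no tile of the 8 gained or lost its call. A block fit on the FLAG and HA libraries alone, chosen after seeing the data, also gave 0. Of the 400 barcodes, 348 in FLAG and 355 in HA were above 0 by library size alone.

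Between FLAG and HA, 0 tiles passed under each of the 18 settings. Barcodes called there numbered 141 by DESeq2, and 0 to 1 with single libraries left out (1 without FLAG replicate 3, outside tiles 2 to 9). The difference in the share of reads ran from -0.66 to 0.71 percentage points with single libraries left out, so no direction is given to it.

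The FLAG against HA differences of single tiles, none of which passed, changed sign around 0 in the settings that follow, and the cause was not tested. By RLE factors tiles 3, 4 and 9 were at 0.0025, 0.0036 and 0.00042, and by DESeq2 at 0.0026, 0.0036 and 0.00044. By library size tiles 3, 4, 6 and 9 were at 0.011, 0.011, 0.0048 and 0.0069. Scaled on the other tiles, tiles 2, 3, 4, 6 and 9 were at 0.0012, 0.025, 0.027, 0.022 and 0.023. Without top barcodes tiles 3, 4, 6 and 9 were at 0.0098, 0.018, 0.021 and 0.016. In the block fit on FLAG and HA alone tiles 3 and 4 were at 0.0015 and 0.0019. With single libraries left out, tiles 2 to 9 ran, in this order, from -0.081 to 0.016, -0.050 to 0.038, -0.031 to 0.046, -0.10 to 0.018, -0.066 to 0.059, -0.040 to 0.10, -0.037 to 0.040 and -0.092 to 0.073.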
